A study of Mus musculus with 96 samples.

Results

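The infarct scar fibroblast genes Comp, Chad, Cilp, Cilp2, Cthrc1, Kif26b and Ptprn were followed across 4 cardiac cell types and 6 days. They are 7 of the 50982 genes found in the series, and all 7 are listed for every library. The 7 were selected on their time course in the fibroblast (FB) libraries, so their FB levels are given as a description and carry no test. By that course 4 were late-rising (Comp, Cilp2, Cilp and Chad) and 3 were early-peaking (Ptprn, Cthrc1 and Kif26b).

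After a myocardial infarct, resident fibroblasts divide, become contractile and secrete matrix, and later settle into the scar. Scar fibroblasts of the mature infarct, called matrifibrocytes, are known for expressing genes of cartilage, tendon and bone. Comp (cartilage oligomeric matrix protein, a thrombospondin) and Chad (chondroadherin, a leucine-rich protein) bind collagens in cartilage. Cilp (cartilage intermediate layer protein) is a secreted matrix protein that binds TGF-beta1, and Cilp2 is its paralog. Cthrc1 is a secreted protein of activated fibroblasts that has been linked to non-canonical Wnt signaling. Kif26b is an atypical kinesin acting downstream of Wnt5a and its Ror receptors. Ptprn (IA-2) belongs to the receptor-type phosphatase family and sits in dense core vesicles of neuroendocrine cells.

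Total RNA was sequenced from FB, endothelial cells (EC), cardiomyocytes (CM) and hematopoietic cells (HC) of adult male C57Bl/6J mice. Hearts were collected 1, 3, 7, 14 and 28 days after acute myocardial infarction, in which a coronary artery (the LAD) was tied off for good, and from control mice without infarction (Day 0). Each of the 24 groups has 4 libraries, every one a pool of RNA from several mice, giving 96 libraries. No sham-operated group was analysed here, so the effect of the infarct and that of the surgery cannot be told apart. CM were sedimented at low speed, HC were captured with anti-CD45 beads, EC with anti-CD144 beads, and FB were the remaining cells that attached to a dish. The 4 cell types came out of the same hearts. Libraries were made in a batch for each cell type, with RNA input and PCR cycles adjusted to its yield, so cell type and library preparation cannot be told apart.

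Libraries held 2664338 to 36545715 estimated reads in FB, 12445124 to 33868990 in EC, 13503024 to 55758471 in CM and 16214419 to 40395291 in HC. Reads on rRNA genes took 2.83% to 35.6% in FB, 11.5% to 30.8% in EC, 53.4% to 68.2% in CM and 9.83% to 32.2% in HC. Between cell types, the sum of each type's 4 defining markers was highest in its own libraries, for every library. Fap, Ddr2, Tcf21 and Pdgfra, 4 fibroblast markers, summed to day means of 929 to 2169 CPM (reads scaled to a fixed library total, here of reads outside rRNA genes) in FB. They were lower but not absent elsewhere, at 91 to 279 CPM in EC, 6.65 to 23.5 CPM in CM and 26.1 to 133 CPM in HC. Within a library, markers of another type could be higher. In HC Day 0 the 4 cardiomyocyte markers summed to 1992 to 2939 CPM and the 4 hematopoietic markers to 999 to 1337 CPM. FB Day 3 replicates 2 and 3 were shallow and the study removed both, together with HC Day 28 replicate 4. The 3 libraries are kept here, and FB Day 3 values are also given without 2 of them. An earlier analysis of these data set 8 libraries apart for a set of transcripts abundant in all of them (in HC, replicates 2 and 4 of Day 28; in EC, replicates 1 and 2 of Day 0 and replicate 3 of Day 28; in FB, the shallow pair of Day 3 and replicate 4 of Day 28). That set was not derived again here, and EC results that depend on these libraries are given with and without them.

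Comp lies on chromosome 8 (70373558 to 70382066, plus strand, GRCm38), as does Cilp2 (69880369 to 69887687, minus strand), 486 kb away. Cilp lies on chromosome 9 (65265180 to 65280605, plus), Chad on chromosome 11 (94565047 to 94569127, plus) and Cthrc1 on chromosome 15 (39076932 to 39087121, plus). Kif26b (178529125 to 178939200, plus) and Ptprn (75247027 to 75264502, minus) are on chromosome 1. All 7 are annotated as protein-coding. Chad lies within Acsf2, a gene of the opposite strand, and Kif26b and Ptprn overlap the antisense genes Gm16564 and Gm28294. Whether strand was used in the quantification is not given in the sources used here. Acsf2 stood at 2.42 to 4.85 CPM in the CM day means, where Chad had at most 5 reads in any library. Gm16564 and Gm28294 did not pass 0.286 CPM in any library.

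RefSeq promoters (GRCm38.p6, 250 bases before to 50 after the gene start) matched 5 of the 7 genes. Those of late-rising Chad (chr11:94564797-94565096, plus) and Cilp (chr9:65264930-65265229, plus) and of early-peaking Kif26b (chr1:178528875-178529174, plus) and Ptprn (chr1:75264159-75264458, minus) are shown because they stand for the 2 courses. Capitals mark TATAAA in Chad and TGTGGT on the reverse strand of Cilp.
Chad: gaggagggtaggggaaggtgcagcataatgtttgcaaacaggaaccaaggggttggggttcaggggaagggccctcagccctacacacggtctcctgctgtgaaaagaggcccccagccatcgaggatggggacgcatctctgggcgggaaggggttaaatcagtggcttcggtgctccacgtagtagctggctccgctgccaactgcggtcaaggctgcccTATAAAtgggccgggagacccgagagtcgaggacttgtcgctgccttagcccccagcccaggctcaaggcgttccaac
Cilp: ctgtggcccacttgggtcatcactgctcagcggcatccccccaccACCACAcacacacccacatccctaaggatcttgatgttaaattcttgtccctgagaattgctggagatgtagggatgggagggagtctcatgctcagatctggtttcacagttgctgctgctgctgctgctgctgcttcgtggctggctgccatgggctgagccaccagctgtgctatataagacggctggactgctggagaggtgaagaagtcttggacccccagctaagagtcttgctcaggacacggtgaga
Kif26b: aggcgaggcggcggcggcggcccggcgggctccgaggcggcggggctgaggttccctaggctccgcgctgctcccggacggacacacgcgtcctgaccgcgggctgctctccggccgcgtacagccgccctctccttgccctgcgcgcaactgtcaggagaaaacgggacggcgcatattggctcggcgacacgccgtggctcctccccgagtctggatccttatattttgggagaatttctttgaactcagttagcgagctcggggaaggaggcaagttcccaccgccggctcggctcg
Ptprn: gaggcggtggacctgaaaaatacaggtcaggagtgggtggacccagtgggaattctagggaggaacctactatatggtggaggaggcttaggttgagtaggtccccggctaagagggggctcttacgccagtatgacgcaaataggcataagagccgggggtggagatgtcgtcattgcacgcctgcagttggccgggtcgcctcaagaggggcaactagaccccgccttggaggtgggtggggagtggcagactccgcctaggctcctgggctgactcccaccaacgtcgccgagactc
Both strands were searched for 7 short motifs, which share no letters at these matches. Only the exact letters were searched, so near variants, such as tatataag in the Cilp promoter, were not counted. The TATA box letters TATAAA were in the Chad promoter, with the match at -28 from the start, and in 13.6% of all 32851 promoters of the table. The RUNX letters TGTGGT were in the Cilp promoter at -205, and in 16.8% of all promoters. The GC box letters GGGCGG, not capitalised, were in the promoters of Chad, Cilp2, Kif26b and 1 of the 2 listed for Ptprn, and in 35.7% of all promoters. The AP-1 letters TGANTCA (7.81% of all promoters), the TEAD letters GGAATG (14.7%), the SMAD letters CAGACA (21%) and the SOX letters ACAATG (12.6%) were in none of the promoters of these 5 genes. Kif26b had 68.3% GC and 38 CG dinucleotides, the most of the 5 genes, and Cilp had 55.7% GC and 4 CG dinucleotides, the fewest. The median over the table was 52.7% GC.

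Levels within a cell type are CPM scaled by the trimmed mean of M values (TMM). Differences are log2 fold changes (later day minus Day 0) ± standard error (SE) from edgeR's quasi-likelihood model over the 24 libraries of a cell type. The SE is approximate: it was back-calculated as the absolute log2 fold change over the square root of the test's F statistic. A result is called when its edgeR p, adjusted by Benjamini-Hochberg over all genes tested in that cell type, is under 0.05.

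Comp was high late in FB. Its 4 libraries held 17.6, 21.8, 18.5 and 19.2 CPM on Day 0, 14.7, 14.9, 11.3 and 16.4 CPM on Day 1 and 10.4, 25, 22.3 and 9.32 CPM on Day 3. They held 142, 54.4, 28.2 and 180 CPM on Day 7, 525, 206, 551 and 612 CPM on Day 14 and 580, 194, 325 and 437 CPM on Day 28. The Day 7, Day 14 and Day 28 libraries all lay above Day 0, and the Day 1 libraries all lay below it. Log2 fold changes were 2.39 ± 0.47 on Day 7, 4.62 ± 0.52 on Day 14 and 4.31 ± 0.51 on Day 28. The Day 28 mean was 81% of the Day 14 mean, and the 2 days overlapped.

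Cilp2 had a like shape at a much lower read level. It measured 0.631, 0.91, 0.723 and 0.96 CPM on Day 0, 0.534, 1.05, 0.641 and 0.768 CPM on Day 1 and 0.618, 0.677, 0 and 0.967 CPM on Day 3. It measured 1.86, 2.21, 2.12 and 2.56 CPM on Day 7, 16, 9.92, 17.6 and 15.8 CPM on Day 14 and 20.2, 7.44, 10.9 and 20.4 CPM on Day 28. Day 14 and Day 28 overlapped each other and lay above all earlier days. Log2 fold changes were 1.43 ± 0.31 on Day 7, 4.19 ± 0.32 on Day 14 and 4.18 ± 0.32 on Day 28. The Day 28 mean was 99.2% of the Day 14 mean.

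Cilp had more reads than the other late members on each day. It held 200, 153, 227 and 185 CPM on Day 0, 145, 126, 102 and 107 CPM on Day 1 and 264, 209, 154 and 209 CPM on Day 3. It held 813, 758, 377 and 696 CPM on Day 7, 1120, 951, 1058 and 1085 CPM on Day 14 and 894, 567, 715 and 767 CPM on Day 28. Day 1 lay below Day 0 in every library, and Day 14 overlapped no other day. The log2 differences from Day 0 were -0.67 ± 0.2 on Day 1, 1.79 ± 0.21 on Day 7, 2.46 ± 0.21 on Day 14 and 1.95 ± 0.21 on Day 28.

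Chad, unlike the other late members, lay below Day 0 in every library on Day 3 and Day 7. It measured 4.21, 3.55, 5.78 and 3.17 CPM on Day 0, 2.49, 4.71, 2.42 and 3.51 CPM on Day 1 and 1.2, 1.35, 0 and 0.207 CPM on Day 3, the last from 35, 2, 0 and 3 reads. It measured 2.46, 1.99, 1.02 and 2.95 CPM on Day 7, 6.33, 2.66, 9.98 and 11.5 CPM on Day 14 and 9.46, 3.75, 4.21 and 5.78 CPM on Day 28. Its Day 14 and Day 28 libraries overlapped Day 0. Against Day 0 the log2 fold changes were -2.48 ± 0.57 on Day 3, -0.98 ± 0.44 on Day 7, 0.87 ± 0.43 on Day 14 and 0.48 ± 0.43 on Day 28.

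Ptprn had the narrowest early peak. It held 0.0701, 0.0568, 0.12 and 0.133 CPM on Day 0, from 2, 2, 4 and 5 reads, and 1.28, 1.13, 0.961 and 1.17 CPM on Day 1. On Day 3 it held 32.8, 35.2, 24.8 and 36.2 CPM, above every library of every other day. It held 5.67, 3.65, 9.76 and 8.29 CPM on Day 7, 2.22, 0.738, 1.46 and 0.238 CPM on Day 14 and 0.0619, 0.0664, 0.274 and 1.91 CPM on Day 28, where replicate 4 stood apart. Log2 fold changes were 8.32 ± 0.85 on Day 3 and 6.08 ± 0.82 on Day 7, and the Day 28 mean was 1.79% of the Day 3 mean.

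Cthrc1 was already higher on Day 1 in FB. It held 0.982, 1.05, 0.903 and 0.8 CPM on Day 0, 21.2, 21.2, 20.6 and 28.2 CPM on Day 1 and 217, 449, 362 and 292 CPM on Day 3. It held 265, 108, 151 and 291 CPM on Day 7, 120, 78.8, 107 and 77 CPM on Day 14 and 20.1, 7.87, 13.2 and 12.7 CPM on Day 28. Day 3 and Day 7 overlapped, and every library after infarction lay above Day 0. Log2 fold changes were 4.61 ± 0.35 on Day 1, 8.45 ± 0.4 on Day 3, 7.76 ± 0.39 on Day 7, 6.67 ± 0.37 on Day 14 and 3.85 ± 0.34 on Day 28.

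Kif26b had a broader plateau. It measured 0.421, 0.512, 0.542 and 0.667 CPM on Day 0, 7.01, 7.38, 5.84 and 7.79 CPM on Day 1 and 88.3, 166, 116 and 105 CPM on Day 3. It measured 159, 70.6, 103 and 190 CPM on Day 7, 94.7, 32, 93.3 and 80.8 CPM on Day 14 and 28.2, 5.05, 14.6 and 21.5 CPM on Day 28. Day 7 was the highest by its mean and overlapped Day 3 and Day 14. Log2 fold changes were 7.75 ± 0.54 on Day 3, 7.91 ± 0.54 on Day 7, 7.11 ± 0.53 on Day 14 and 4.99 ± 0.5 on Day 28.

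**Figure D1:**
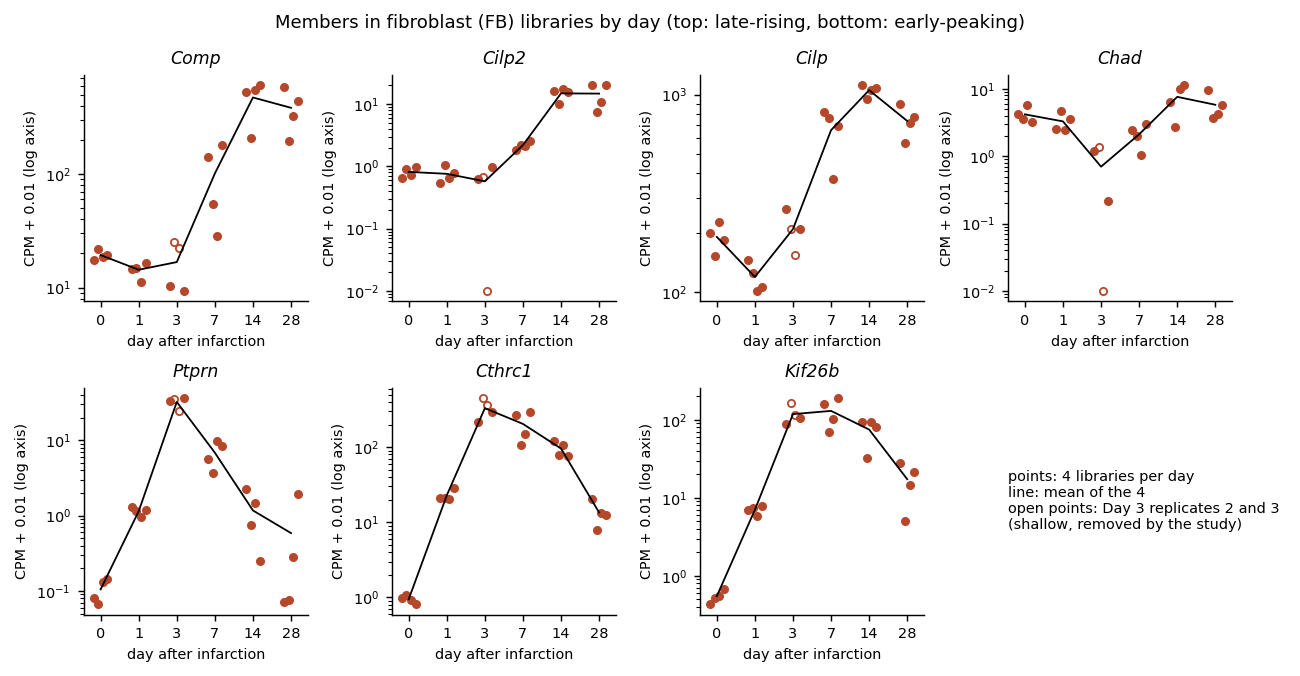
CPM of each member in the 4 FB libraries of each day (points, open for the 2 shallow Day 3 libraries; y axis on a log scale after a small constant was added; lines, mean of 4 libraries). Comp, Cilp2, Cilp and Chad have their highest mean on Day 14, Ptprn and Cthrc1 on Day 3 and Kif26b on Day 7.

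Without the 2 shallow FB Day 3 libraries, Day 3 averaged 255 CPM for Cthrc1, 96.4 CPM for Kif26b, 34.5 CPM for Ptprn and 9.86 CPM for Comp. Day 3 log2 fold changes were then 8.1 ± 0.41 for Cthrc1, 7.48 ± 0.6 for Kif26b, 8.44 ± 0.9 for Ptprn, -0.94 ± 0.61 for Comp and -2.37 ± 0.65 for Chad. The unit moved 1 peak. In TPM, which divides by transcript length and is not TMM-scaled, Cthrc1 averaged 73.5 on Day 3 and 98.7 on Day 7, so its highest day was Day 3 by CPM and Day 7 by TPM. Chad averaged 1.34 TPM on Day 28, against 1.71 TPM on Day 0, and so lay below Day 0 by TPM but above it by CPM. Cilp on Day 3 averaged 10.7 TPM, against 20.9 TPM on Day 0, again below Day 0 by TPM and above it by CPM. Comp on Day 3 averaged 1.1 TPM, against 6.24 TPM on Day 0, a wider gap than by CPM.

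Markers of other cell types also moved in the FB libraries. The 4 fibroblast markers summed to 929 CPM on Day 3 and 1987 CPM on Day 28, against 2169 CPM on Day 0. The 9 mesothelial genes, all above 0 in every group, ranged over 202 to 430 CPM on Day 7, 125 to 574 CPM on Day 14 and 63.9 to 180 CPM on Day 28, against 16 to 26.3 CPM on Day 0. The 4 cardiomyocyte markers ranged over 13.4 to 449 CPM on Day 3, against 25.2 to 49.9 CPM on Day 0. The 8 valve and tendon-like genes ranged over 505 to 640 CPM on Day 14, against 286 to 355 CPM on Day 0. On Day 3, when Ptprn was highest and Chad lowest, the 9 Schwann cell genes summed to 24.7 to 102 CPM, against 20.2 to 25.2 CPM on Day 0. The 10 mural cell genes summed to 400 to 557 CPM on Day 3, against 918 to 1111 CPM on Day 0. Their part in the members' levels was not tested. In bulk RNA, fewer cells of a type and less RNA per cell cannot be told apart.

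Late minus early was taken as the mean of Day 14 and Day 28 minus the mean of Day 3 and Day 7, on the log2 scale. In FB it was 3.58 ± 0.25 for Cilp2, 3.46 ± 0.36 for Comp, 2.4 ± 0.36 for Chad and 1.24 ± 0.15 for Cilp. It was -4.18 ± 0.47 for Ptprn, -2.85 ± 0.21 for Cthrc1 and -1.78 ± 0.28 for Kif26b. The split in sign follows from how the genes were chosen. Across the 24 FB libraries, which share days, the correlation of log2(CPM + 1) was 0.96 between Cthrc1 and Kif26b, 0.94 between Comp and Cilp2, 0.92 between Comp and Cilp and -0.76 between Chad and Ptprn.

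In some groups, though not all, 1 library was the lowest or highest for most members. In HC Day 14, by contrast, replicates 1 to 4 were the lowest for 1, 3, 1 and 2 of the 7 genes. Such ranks are not given here for all genes, so they are not a result about the members. FB Day 28 replicate 2 was the lowest of 4 for 6 of the 7 genes and replicate 1 the highest for 5. FB Day 14 replicate 2 was the lowest for 5 of the 7. EC Day 28 replicate 2 was the lowest for 5 of the 6 genes with at least 10 reads in a library, and CM Day 28 replicate 2 for 4 of 5. The labels do not say that equal replicate numbers mark the same mice.

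EC, CM and HC levels were taken as not used in choosing the members, apart from Cthrc1 in EC on Day 3. That level was known when the list was made and is described only. The members were chosen with earlier results of these data known, so this is an assumption. Below, each count of members called is set beside the share of all genes called in that comparison. The same hearts supplied the FB pools, so these results are not independent of the FB course.

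In EC, 18144 genes were tested. Kif26b was called higher on all 5 days, Cilp from Day 3, Comp and Cthrc1 from Day 7, and Ptprn on Day 3 and Day 7. Cthrc1 lay above Day 0 in every library on Day 3 already, where it carries no test. DESeq2 called Cthrc1 on Day 1 as well (adjusted p = 0.0131). Limma on log2(TPM + 1) did not call Kif26b on Day 1 (adjusted p = 0.758) or Day 28 (adjusted p = 0.101). Cilp on Day 3 was not called on that scale either (adjusted p = 0.0705). On Day 1, 1 of 7 members was called, against 19% of all genes. On Day 3 it was 4 of 6 (45.5% of all genes), on Day 7 5 of 7 (37.6%), on Day 14 4 of 7 (27%) and on Day 28 5 of 7 (33.7%). The calls in the falling direction were Cilp2 on Day 3 and Ptprn on Day 28.

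Comp in EC held 25.1, 22.6, 42 and 47.5 CPM on Day 14 and 47.5, 22.5, 37 and 52.8 CPM on Day 28, against 6.41, 1.46, 2.19 and 3.08 CPM on Day 0. Both days lay above Day 0 in every library, by 3.4 ± 0.5 (adjusted p = 0.000143) and 3.62 ± 0.51 (adjusted p = 2.26e-05). Day 7 overlapped Day 0 with 14.1, 30.7, 6.97 and 5.79 CPM and was called (2.15 ± 0.49, adjusted p = 0.00208). Cilp held 29.4, 20.2, 17 and 15.6 CPM on Day 3 and 62.5, 136, 55.3 and 72.6 CPM on Day 7, against 6.36, 2.1, 5.97 and 3.12 CPM on Day 0. It was above Day 0 by 2.23 ± 0.4 on Day 3 (adjusted p = 0.000166), 4.22 ± 0.43 on Day 7, 3.76 ± 0.42 on Day 14 and 3.97 ± 0.42 on Day 28, with all 4 libraries above Day 0 on each.

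Cthrc1 in EC held 32.4, 37.1, 20.1 and 21 CPM on Day 3, 44.1, 78.5, 55.2 and 25.8 CPM on Day 7 and 4.25, 1.41, 2.22 and 5.92 CPM on Day 28, against 0.944, 0.215, 0.569 and 0.269 CPM on Day 0. These days lay above Day 0 in every library, by 6.7 ± 0.52 on Day 7 (adjusted p = 1.32e-08) and 2.83 ± 0.52 on Day 28 (adjusted p = 0.000349). Kif26b held 2.32, 3, 2.5 and 6 CPM on Day 1 and 35.3, 55.2, 36.4 and 21.5 CPM on Day 7, against 1.69, 1.03, 0.772 and 1 CPM on Day 0. The differences were 1.66 ± 0.39 on Day 1 (adjusted p = 0.00581), 5.06 ± 0.4 on Day 7 (adjusted p = 1.35e-08) and 2.42 ± 0.39 on Day 28 (adjusted p = 7.41e-05).

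Ptprn in EC had a narrow Day 3 peak too. It held 9.64, 8.06, 9.32 and 7.84 CPM on Day 3, against 1.64, 0.816, 0.203 and 0.231 CPM on Day 0 (3.62 ± 0.46, adjusted p = 2.26e-06). On Day 28 it had fallen to 0.0653, 0.0741, 0.331 and 0.0524 CPM (-2.27 ± 0.62, adjusted p = 0.00748), and the highest of these libraries lay above the lower 2 of Day 0. Without EC Day 0 replicate 1 the Day 28 difference was -1.5 and was no longer called (adjusted p = 0.0552).

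Chad and Cilp2 were uneven in EC before infarction. Chad held 0.332, 0.892, 1.79 and 2.32 CPM on Day 14, against 0.994, 1.29, 0.0812 and 0.0385 CPM on Day 0 (1.16 ± 0.81, adjusted p = 0.293), and by edgeR over all libraries it was called on no day. On Day 3 it held 0.0448, 0.0844, 0.276 and 0.0461 CPM (-2.25 ± 0.99, adjusted p = 0.0688), a difference that DESeq2 called (adjusted p = 0.0296) and that edgeR called without Day 0 replicate 3 or 4 or Day 3 replicate 3 (adjusted p 0.0254 to 0.0377). Without EC Day 0 replicates 1 and 2 and EC Day 28 replicate 3, which had been set apart, Chad was called on Day 7 (3.68, adjusted p = 0.0248), Day 14 (4.36, adjusted p = 0.0213) and Day 28 (3.6, adjusted p = 0.0404). Ptprn without them was called on Day 1 (1.92, adjusted p = 0.00399) and not on Day 28 (-1.71, adjusted p = 0.126). On Day 14 its difference of -0.31 ± 0.49, adjusted p = 0.665 turned to 1.36, adjusted p = 0.0382.

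Cilp2 held 1.52, 1.81, 2.21 and 1.57 CPM on Day 3, against 4.37, 5.24, 0.528 and 5.62 CPM on Day 0 (-1.14 ± 0.43, adjusted p = 0.0347), and the days overlapped. This call was lost without Day 0 replicate 1, 2 or 4 or Day 3 replicate 1, 2 or 4 (adjusted p 0.0624 to 0.107), and also without the 3 libraries just named (adjusted p = 0.277). It was lost as well when all libraries were kept and the fit was blocked on replicate number (adjusted p = 0.0708). Without EC Day 0 replicate 3, edgeR also called Cilp2 lower on Day 1 (-1.49, adjusted p = 0.00125), Day 7 (-1.335, adjusted p = 0.00124) and Day 14 (-0.85, adjusted p = 0.0288). Day 0 replicate 3 was the lowest library of Cilp2 in HC (0.868, 2.33, 0.185 and 3.68 CPM) and CM (0.261, 0.876, 0.147 and 0.719 CPM) as well. Without HC Day 0 replicate 3, edgeR called Cilp2 lower in HC on Day 7 (-1.59, adjusted p = 0.0176).

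In CM, 14535 genes were tested, and the members stood at a few CPM or less. Chad had at most 5 reads in a library and was not tested. On Day 1, 0 of 6 members were called by edgeR, against 11.4% of all genes. By DESeq2 it was 0 as well. By edgeR 1 member, Cilp2, had an unadjusted p under 0.05, and without CM Day 0 replicate 3 it was called lower (-2.06, adjusted p = 0.0436). With all libraries, edgeR called 3 of 6 on Day 3 (30.5% of all genes), 4 of 6 on Day 7 (13.3%), 4 of 6 on Day 14 (13.8%) and 2 of 6 on Day 28 (3.58%). All of these calls were rises.

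Cthrc1 in CM had 0, 0, 0 and 2 reads on Day 0. It held 1.79, 3, 2.43 and 2.71 CPM on Day 3, 2.16, 4.61, 1.73 and 4.48 CPM on Day 7 and 0.912, 0.967, 0.386 and 0.723 CPM on Day 14, all above the highest Day 0 library. The 3 days were called (adjusted p = 4.55e-08, adjusted p = 1.04e-07 and adjusted p = 4.79e-05), and Day 28 with 0.163, 0, 0.323 and 0.153 CPM was not (adjusted p = 0.13). A transcript annotated as a retained intron took 73.3% of the Cthrc1 reads in CM, against 10.6% in EC. Cilp held 1.64, 5.35, 1.67 and 4.3 CPM on Day 7, against 0.228, 0.379, 0.257 and 0.431 CPM on Day 0 (3.27 ± 0.5, adjusted p = 7.84e-05).

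Comp in CM held 0.692, 1.78, 0.802 and 1.23 CPM on Day 14, against 0.0326, 0.071, 0.0734 and 0.144 CPM on Day 0 (3.71 ± 0.73, adjusted p = 0.00137). On Day 28 it was 2.87 ± 0.77 (adjusted p = 0.0415), a call lost without any 1 of the Day 0 libraries or Day 28 replicate 1, 3 or 4 (adjusted p 0.0617 to 0.15). Its Day 7 call (2.85 ± 0.77, adjusted p = 0.0138) was lost without Day 7 replicate 2 or 4 (adjusted p 0.0597 to 0.0669). Cilp lost its Day 3 call (1.5 ± 0.52, adjusted p = 0.0323) without Day 0 replicate 1, 2 or 3 or Day 3 replicate 2 or 4 (adjusted p 0.053 to 0.0866). It lost its Day 28 call (2.29 ± 0.52, adjusted p = 0.0193) without Day 0 replicate 1 or Day 28 replicate 4 (adjusted p 0.0533 to 0.122).

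Kif26b in CM held 2.07, 2.91, 1.33 and 2.81 CPM on Day 7, against 1.14, 0.639, 0.954 and 1.1 CPM on Day 0 (1.25 ± 0.28, adjusted p = 0.00364). Its Day 14 call (0.97 ± 0.28, adjusted p = 0.0241) was lost without Day 0 replicate 2 or Day 14 replicate 2 (adjusted p 0.0863 to 0.121). Ptprn was present in CM before infarction, at 2.3, 3.25, 2.87 and 3.05 CPM on Day 3, against 1.53, 1.33, 0.844 and 1.89 CPM on Day 0 (1.02 ± 0.29, adjusted p = 0.00932). Day 28 held 2.31, 2, 3.56 and 2.97 CPM, above every Day 0 library and not called (0.9 ± 0.3, adjusted p = 0.0814).

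In HC, 18947 genes were tested. The deposited HC files of Day 1 and Day 7 list transcripts and those of the other days list genes. For those 2 days, day and file kind therefore cannot be told apart. Cthrc1 rose on all 5 days, Kif26b from Day 3, Comp and Cilp from Day 7 and Chad from Day 14. On Day 1, 3 of 7 members were called, against 42% of all genes. On Day 3 it was 3 of 7 (46.4% of all genes), on Day 7 4 of 7 (28.3%), on Day 14 5 of 7 (12.9%) and on Day 28 5 of 7 (21.7%). The falls were Cilp on Day 1 (-1.56 ± 0.35, adjusted p = 0.000976) and Cilp2 on Day 1 (-2.3 ± 0.6, adjusted p = 0.00369) and Day 3 (-2.13 ± 0.58, adjusted p = 0.00416). Cilp2 overlapped Day 0 on both days. Limma on log2(TPM + 1) called none of these falls (adjusted p = 0.513 for Cilp, 0.0636 and 0.11 for Cilp2). Among the rises, it did not call Cthrc1 on Day 1 (adjusted p = 0.632) or Day 28 (adjusted p = 0.0878). Kif26b on Day 3 (adjusted p = 0.313) and Day 28 (adjusted p = 0.307) was not called either. Nor did it call Comp on Day 7 (adjusted p = 0.133) or Chad on Day 14 (adjusted p = 0.0639). The median of all genes on Day 1 was -0.11.

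Comp in HC held 31.3, 16.1, 24 and 31.9 CPM on Day 14 and 65.4, 34.7, 41.8 and 29.9 CPM on Day 28, against 0.922, 0.456, 0.865 and 0.8 CPM on Day 0. The differences were 5.09 ± 0.47 on Day 14 (adjusted p = 3.37e-07) and 5.82 ± 0.48 on Day 28 (adjusted p = 1.53e-07). Cilp held 58.7, 27, 24.8 and 45.4 CPM on Day 28, against 4.29, 2.37, 5.5 and 4.4 CPM on Day 0 (3.24 ± 0.33, adjusted p = 7.92e-07). Chad had 10, 11, 20 and 19 reads on Day 14 and 29, 28, 31 and 14 reads on Day 28, against 1, 0, 3 and 3 reads on Day 0. By CPM both days lay above Day 0 in every library, and both were called (adjusted p = 0.00353 and adjusted p = 0.000568).

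Cthrc1 in HC held 2.51, 3.17, 2.55 and 3.27 CPM on Day 3 and 7.99, 8.29, 7.95 and 7.63 CPM on Day 7, against 0, 0.137, 0.0618 and 0.16 CPM on Day 0 (6.3 ± 0.6, adjusted p = 7.76e-08 for Day 7). The Day 7 libraries overlapped no other day. Kif26b held 5.65, 7.11, 6.76 and 9.33 CPM on Day 7 and 4.56, 1.13, 3.55 and 1.45 CPM on Day 28, against 0.922, 1, 0.618 and 0.8 CPM on Day 0, and was above Day 0 by 3.1 ± 0.41 on Day 7 (adjusted p = 5.07e-06). Ptprn was called on no day against Day 0, and its libraries ranged over 0.191 to 1.16 CPM.

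**Figure D2:**
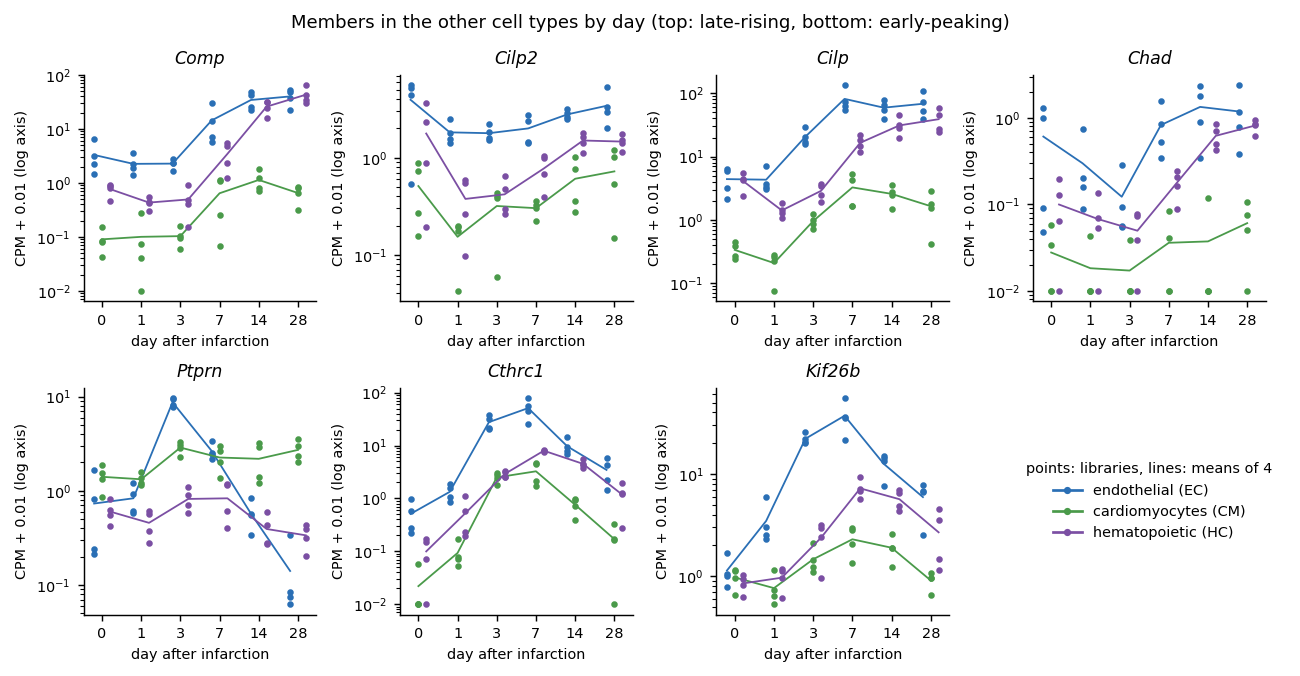
CPM of each member in EC, CM and HC libraries by day (points; y axis on a log scale after a small constant was added; lines, mean of 4 libraries). Cthrc1 has its highest mean on Day 7 in all 3 cell types, and Comp and Chad in HC have theirs on Day 28.

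The contrast of late-rising and early-peaking genes was next tested in EC, CM and HC. Late minus early was called for 5 of 7 members in EC (37.6% of all genes), 2 of 6 in CM (10.3%) and 6 of 7 in HC (36.2%). The EC count includes Cthrc1, whose difference there draws on the Day 3 level known when the list was made. Each call had the sign seen in FB. Comp was higher late by 2.69 ± 0.34 in EC (adjusted p = 5.9e-06), 1.77 ± 0.46 in CM (adjusted p = 0.0132) and 4.69 ± 0.32 in HC (adjusted p = 8.12e-10). Cthrc1 was lower late, with -3.24 ± 0.34 in CM (adjusted p = 8.63e-07) and -1.06 ± 0.3 in HC (adjusted p = 0.00839). In EC it measured -2.7 ± 0.28, given as a description only.

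The other members were called in some cell types only. Ptprn was lower late in EC (-4.05 ± 0.37, adjusted p = 9.26e-08) and HC (-1.2 ± 0.27, adjusted p = 0.00151), and measured -0.09 ± 0.2, adjusted p = 0.826 in CM. Kif26b was lower late in EC (-1.73 ± 0.23, adjusted p = 8.8e-06), and measured -0.46 ± 0.2, adjusted p = 0.156 in CM and -0.09 ± 0.26, adjusted p = 0.831 in HC. Chad was higher late in HC (3.05 ± 0.41, adjusted p = 5.83e-06) and in EC (1.98 ± 0.63, adjusted p = 0.0169), where the call was lost without Day 28 replicate 3 (adjusted p = 0.0503). Cilp was higher late in HC (2.34 ± 0.22, adjusted p = 8.46e-08) and measured 0.64 ± 0.26, adjusted p = 0.0597 in EC, where it was called without the libraries set apart (0.73, adjusted p = 0.0264). In CM Cilp measured 0.22 ± 0.31, adjusted p = 0.705. Its highest mean was on Day 7 in both EC and CM. Cilp2 was higher late in HC (1.39 ± 0.4, adjusted p = 0.00865) and measured 0.71 ± 0.31, adjusted p = 0.0702 in EC and 1.03 ± 0.43, adjusted p = 0.138 in CM. In HC it did not rise above Day 0, with means of 1.494 CPM on Day 14 and 1.456 CPM on Day 28, against 1.765 CPM on Day 0. The HC contrast set these days against a low Day 3 (0.41 CPM) and Day 7 (0.765 CPM). Limma did not call it on log2(TPM + 1) (adjusted p = 0.191) or log2(TPM + 0.1) (adjusted p = 0.0657). Whether the difference itself varied between cell types was not tested.

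**Figure D3:**
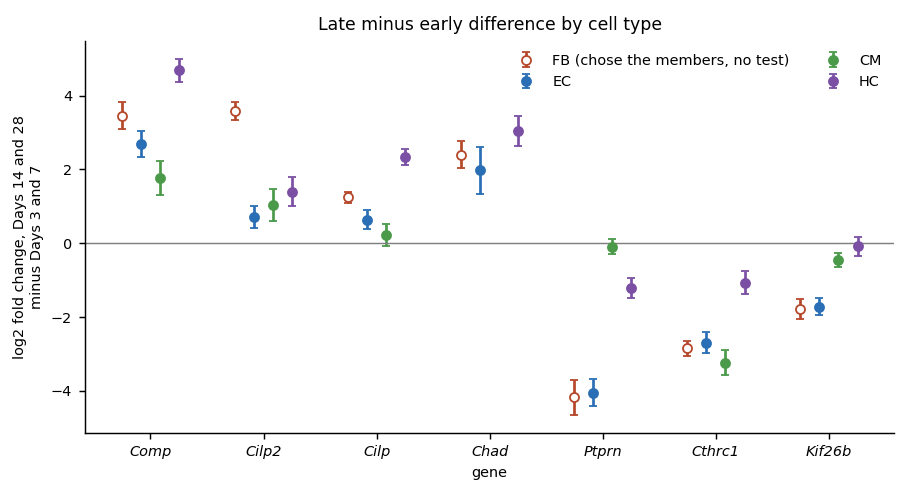
Log2 fold change of Days 14 and 28 over Days 3 and 7 for each member, by cell type; vertical bars show 1 SE on each side. FB values chose the members and carry no test, and Cthrc1 in EC is a description only. Comp lies above 0 and Cthrc1 below 0 in all 4 cell types, while Ptprn in CM and Kif26b in HC lie at -0.09 and -0.09.

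Fibroblast marker levels differed between days in EC, CM and HC as well. In EC the 4 markers summed to 279 CPM on Day 7 and 253 CPM on Day 28, against 91 CPM on Day 0. In CM they summed to 23.5 CPM on Day 7 and 10.6 CPM on Day 28, against 6.65 CPM on Day 0. In HC they summed to 64.5 CPM on Day 7 and 133 CPM on Day 28, against 71.2 CPM on Day 0. No marker of the 4 was at 0 in any of these groups.

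Other marker lists moved in these libraries too. In CM the mesothelial genes summed to 66.3 to 338 CPM on Day 14, against 13.1 to 23.5 CPM on Day 0, and the 4 hematopoietic markers to 14.5 to 22.3 CPM on Day 3, against 0.446 to 1.13 CPM on Day 0. In EC the mesothelial genes summed to 347 to 668 CPM on Day 14, against 138 to 261 CPM on Day 0, and the mural cell genes to 1431 to 1811 CPM on Day 3, against 3342 to 4279 CPM on Day 0. In EC the 4 cardiomyocyte markers summed to 405 to 684 CPM on Day 28, against 1641 to 2522 CPM on Day 0. In HC those cardiomyocyte markers summed to 244 to 473 CPM on Day 3, against 1992 to 2939 CPM on Day 0, the 4 endothelial markers to 107 to 120 CPM on Day 3, against 504 to 733 CPM on Day 0 and the mural cell genes to 74.6 to 108 CPM on Day 3, against 584 to 758 CPM on Day 0. The part of these cells in the members' changes was not tested.

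Taken as a percent of the FB mean of the same day (CPM outside rRNA genes), the marker sum was 12.8% in EC, 0.535% in CM and 6.68% in HC on Day 28. Comp was 12% in EC, 0.337% in CM and 11.9% in HC on that day. Cilp was 10.6% in EC, 0.449% in CM and 5.59% in HC. Chad, Cthrc1, Kif26b, Cilp2 and Ptprn stood above the marker sum in all 3 cell types, for instance Kif26b at 39.4% in EC, 10.7% in CM and 16.3% in HC. Single markers differed on Day 28. Fap was 30.3% in EC, 1.17% in CM and 11.95% in HC, and Pdgfra was 11.2%, 0.37% and 6.6%. In EC, Fap thus stood above Chad (23.8%) and Cthrc1 (29.5%).

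Before infarction some members had more reads outside FB. Ptprn in CM was 2934% of its FB level on Day 0, when FB had 2 to 5 Ptprn reads a library, and 924% on Day 28. Cilp2 on Day 0 was 466% of FB in EC, 126% in CM and 226% in HC, against a marker sum of 4.2% in EC, 0.307% in CM and 3.28% in HC. Kif26b on Day 0 was 203% of FB in EC, 351% in CM and 161% in HC, though by TPM its Day 0 mean was highest in FB. The part of fibroblast RNA in the EC, CM and HC values was not tested.

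**Figure D4:**
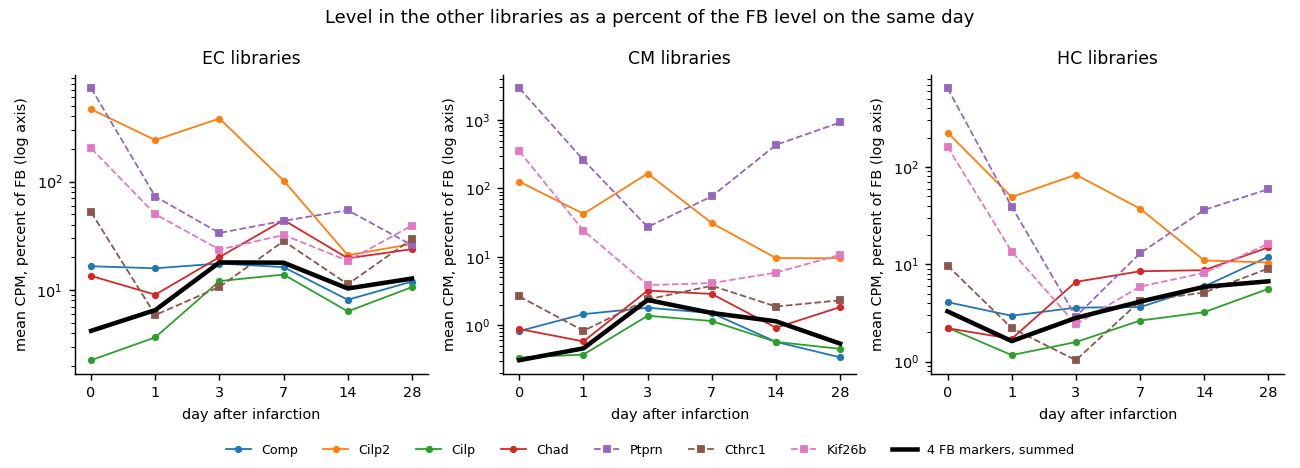
Mean level in EC, CM and HC as a percent of the FB mean on the same day (CPM outside rRNA genes, log axis), for each member and for the sum of 4 fibroblast markers. On Day 28 Comp in EC (12%) lies near the marker sum (12.8%), while Ptprn in CM (924%) lies far above it (0.535%).

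Levels of different genes and cell types were compared as TPM, which is per length. FB had the highest mean for 37 of the 42 combinations of member and day, and in 26 of them every FB library lay above every library of the next cell type. The members were chosen on FB levels, and such counts are not given here for all genes. They are therefore not a result about the members. The exceptions were Cilp2 on Day 0, Day 1 and Day 3 (highest in EC) and Ptprn on Day 0 (EC) and Day 28 (CM), and in these 5 the libraries overlapped the next cell type. This TPM includes rRNA genes, whose share differed between cell types. For TPM outside rRNA genes FB was highest in 36 of 42, and CM was highest for Ptprn on Day 0, Day 14 and Day 28. Comp on Day 14 averaged 81.8 ± 31.3 TPM in FB, 6.99 ± 3.51 TPM in EC, 5.57 ± 1.24 TPM in HC and 0.172 ± 0.109 TPM in CM (SD, n = 4 libraries each). Cthrc1 on Day 3 averaged 73.5 ± 33.3 TPM in FB, 8.91 ± 4.59 TPM in EC, 1.93 ± 1.27 TPM in HC and 0.985 ± 0.197 TPM in CM. Within FB the order of members by TPM turned over. Cilp, Comp and Chad led on Day 0, Cthrc1, Cilp and Ptprn on Day 3, and Comp, Cilp and Cthrc1 on Day 14 and Day 28.

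Genes of the members' pathways, from lists drawn up with earlier results of these data known, were tested in FB. Of all 18658 genes, 14.3% were called on Day 7, 3.49% on Day 28 and 34.5% in late minus early. The median log2 fold change of all genes was -0.04 on Day 7, 0.04 on Day 28 and 0.05 in late minus early.

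The cartilage and tendon matrix list (23 of 28 genes tested) had 14 higher and 1 lower on Day 7, 10 higher and 0 lower on Day 28 and 12 higher and 0 lower in late minus early, with medians of 1.69, 1.32 and 0.72 in that order. Col11a1, a fibrillar collagen chain of cartilage, averaged 72.3 ± 39.1 CPM on Day 7 and 21.7 ± 13.4 CPM on Day 28, against 1.58 ± 0.457 CPM on Day 0 (SD, n = 4 libraries). Fmod, a collagen-binding proteoglycan of tendon, was above Day 0 on Day 28 (2.97 ± 0.42, adjusted p = 0.000212) and higher late than early (2.74 ± 0.31, adjusted p = 1.38e-06). Cytl1, a secreted protein of cartilage, was higher late than early (2.49 ± 0.17, adjusted p = 1.72e-09).

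The myofibroblast and activated fibroblast list (20 genes, all tested) had 18 higher and 0 lower on Day 7, 8 higher and 0 lower on Day 28 and 2 higher and 13 lower in late minus early, with medians of 2.64, 0.75 and -1.07. Tnc (tenascin C) averaged 433 ± 120 CPM on Day 7, against 15.5 ± 2.33 CPM on Day 0, and was lower late than early (-2.81 ± 0.18, adjusted p = 1.62e-09). Acta2, the smooth muscle actin of contractile fibroblasts, was lower late (-2.38 ± 0.21, adjusted p = 6.07e-08), as was Lrrc15 (-2.43 ± 0.24, adjusted p = 1.74e-07). Ltbp2, a latent TGF-beta binding protein family member, was still above Day 0 on Day 28 (2.99 ± 0.35, adjusted p = 2.25e-05).

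The Wnt5a and planar cell polarity list (22 genes, all tested), to whose pathway Kif26b belongs, had 5 higher and 0 lower on Day 7 and 3 higher and 3 lower in late minus early, with medians of 0.13, 0.01 and -0.05 for Day 7, Day 28 and late minus early. On Day 28 edgeR called 0, 2 genes had an unadjusted p under 0.05, and DESeq2 called 1 (Celsr1). Fzd6, a Wnt receptor, was above Day 0 on Day 7 (1.85 ± 0.28, adjusted p = 4.55e-05). Ptk7 and Ror2, receptors of the pathway, were lower late than early (-1.04 ± 0.16, adjusted p = 4.32e-05 for Ptk7 and -0.71 ± 0.13, adjusted p = 0.000192 for Ror2). Wnt5a itself averaged 35 ± 2.89 CPM on Day 7 and 31.2 ± 3.42 CPM on Day 28, against 25.2 ± 2.76 CPM on Day 0.

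The TGF-beta list (20 genes, all tested), which relates to Cilp, had 3 higher and 2 lower on Day 7, 2 higher and 0 lower on Day 28 and 8 higher and 1 lower in late minus early. Tgfb3, a TGF-beta ligand, was above Day 0 on Day 7 (1.43 ± 0.2, adjusted p = 2.45e-05) and Day 28 (1 ± 0.2, adjusted p = 0.00518). Ltbp4, a latent TGF-beta binding protein, was higher late than early (0.83 ± 0.16, adjusted p = 0.000343). Of the dense core vesicle list (19 genes), to which Ptprn relates, 9 had enough reads to test. It had 2 higher and 3 lower on Day 7, 1 higher and 0 lower on Day 28 and 2 higher and 0 lower in late minus early, with Cpe, a peptide-processing enzyme, higher on Day 7 (1.1 ± 0.23, adjusted p = 0.0018).

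The resting fibroblast list (15 genes, all tested) had 0 higher and 6 lower on Day 7 and 8 higher and 0 lower in late minus early. On Day 28 edgeR called 0, 4 genes had an unadjusted p under 0.05, and DESeq2 called 1 (Tcf21). Gsn (gelsolin, an actin-severing protein) was below Day 0 on Day 7 (-1.19 ± 0.22, adjusted p = 0.000458) and higher late than early (0.68 ± 0.15, adjusted p = 0.00181).

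Of the relatives of the members in FB, Thbs4, a thrombospondin like Comp, rose most. It averaged 73.6 ± 14.3 CPM on Day 3, 227 ± 48.1 CPM on Day 14 and 165 ± 16.1 CPM on Day 28, against 16.2 ± 3.59 CPM on Day 0. It was called from Day 3 (2.17 ± 0.31, adjusted p = 9.49e-06) and in late minus early (0.95 ± 0.21, adjusted p = 0.00153). Thbs1 was not called on any day against Day 0. Thbs2 was called on Day 3 (-0.51 ± 0.17, adjusted p = 0.018) and Day 7 (0.7 ± 0.17, adjusted p = 0.00695), and Thbs3 on Day 3 (-0.31 ± 0.12, adjusted p = 0.0303), Day 7 (0.65 ± 0.11, adjusted p = 0.000262) and Day 14 (0.62 ± 0.11, adjusted p = 0.0006). Chadl, a relative of Chad, and Kif26a, a relative of Kif26b, were called in none of the 6 contrasts (adjusted p 0.255 to 0.99 for Chadl and 0.162 to 0.853 for Kif26a). Ptprn2, a relative of Ptprn, stood at 0.145 to 0.322 CPM by day mean and was not tested.

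Genes with a course most like each member were found by Pearson correlation of log2(CPM + 1) over the 24 FB libraries, among 10404 named genes whose mean CPM reached 5. They share libraries and days with the members, so these values are descriptions. Comp was most like Cpxm2 (0.97), Fmod (0.97) and Kcnma1 (0.96), and Cilp2 was most like Angptl7 (0.93), Cpxm2 (0.92) and Fmod (0.92). Cilp was most like Col8a2 (0.96), Zfp185 (0.95) and Nkd2 (0.95). Chad was most like Cytl1 (0.87), Wif1 (0.86) and Thrb (0.84). Wif1, a secreted Wnt inhibitor, averaged 3.16 ± 1.62 CPM on Day 3, against 19.1 ± 2.68 CPM on Day 0.

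Ptprn was most like Ccnb2 (0.97), Cit (0.96) and Cenpe (0.96). Ccnb2 is a mitotic cyclin, and it averaged 30.2 ± 7.57 CPM on Day 3 and 6.7 ± 2.25 CPM on Day 7, against 1.52 ± 0.212 CPM on Day 0. Cthrc1 was most like Gpr176 (0.98), Cdh2 (0.97) and Palld (0.97), and Kif26b was most like Palld (0.99), Rgs16 (0.97) and P4ha3 (0.97). Palld, which codes for the actin-associated protein palladin, averaged 175 ± 25.7 CPM on Day 3 and 178 ± 59.6 CPM on Day 7, against 10.5 ± 0.874 CPM on Day 0.

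**Figure D5:**
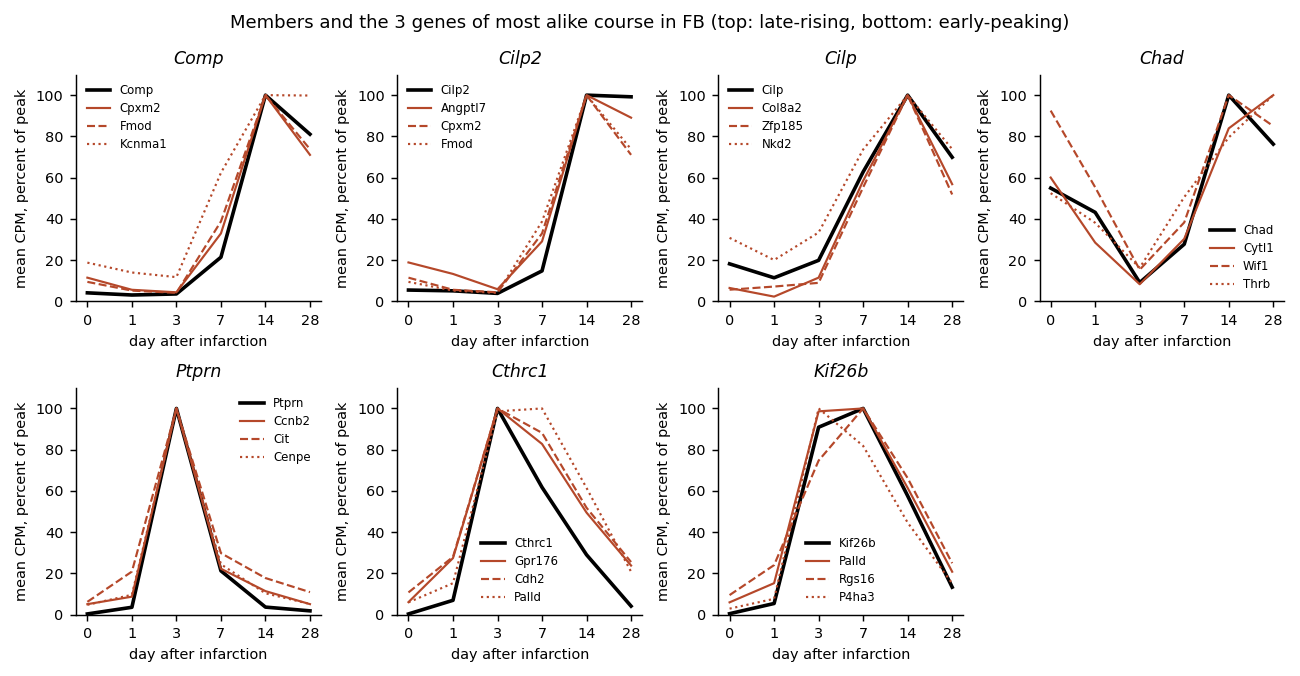
Mean CPM in FB by day, as a percent of the gene's highest day, for each member and the 3 genes with the most alike course. Ptprn and its 3 companions have their highest mean on Day 3, and Palld, beside Kif26b, is near its highest on both Day 3 and Day 7.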

How the data were processed

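Total RNA-seq libraries (96, in 24 groups of 4) were analysed. Per the submitters' processing notes, reads were trimmed with Trim Galore and processed with STAR 2.28 and Salmon against mm10. The files deposited by the authors hold estimated counts (expected counts, not normalized) and TPM (reads per effective length, scaled to a fixed sum per library). In 56 files the entries are transcripts, summed here per gene with GENCODE M21, and in 40 files they are genes. Transcript files are those of EC, of CM and of HC on Day 1 and Day 7. Gene files are those of FB and of HC on Day 0, Day 3, Day 14 and Day 28. File kind thus coincides with cell type between FB and EC or CM. In HC, Day 1 and Day 7 differ in kind from Day 0, and late minus early mixes both kinds. The part of file kind in these comparisons was not tested. Entries without a gene held at most 0.363% of the reads of a library and were left out.

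Estimated counts were rounded to whole numbers, filtered with filterByExpr and fitted by cell type with edgeR 4.0.16 in R 4.3.3 (TMM, quasi-likelihood, robust), with Benjamini-Hochberg adjustment over all genes tested. All 24 libraries of a cell type shared 1 estimate of the spread, and tests were two-sided. The labels do not say what replicates share, so p-values reflect only the variation among pools, part of which may be technical. Levels are TMM-scaled CPM. Marker sums and percents of FB are CPM outside rRNA genes, unscaled.

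Members and gene lists were chosen with earlier results of these data known. Named list genes were at most 3 of each list and contrast, those with the largest change among genes called, with a mean CPM of 5 or more and, against Day 0, no overlap of libraries. The result of 1 list gene is not reported here, though the counts include it. All marker lists were summed, and Schwann cell and mural cell sums of FB on Day 28 are given in the closing section. Alternatives were DESeq2 1.42.0, limma 3.58.1 on log2(TPM + 1) and log2(TPM + 0.1), no filter, rRNA genes left out, fewer libraries and the replicate number as a block. The fit was tested on simulated data. Depth ranges are given with the libraries above, and low counts limit Chad and Ptprn most.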

Additional observations from a re-analysis of the deposited data

Results flagged for a closer look

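In 147 groups of 4 libraries, a single library stood apart from the other 3 in 5, by Dixon's criterion, which chance alone meets in about 1 group in 20. Ptprn in FB Day 28 replicate 4 had 1.91 CPM, against 0.0619 to 0.274 CPM in the other 3. Cthrc1 in FB Day 1 replicate 4 had 28.2 CPM, against 20.6 to 21.2 CPM. In EC Day 1 replicate 4, Chad had 0.738 CPM (0.0795 to 0.19 in the others) and Cilp had 7.16 CPM (3.06 to 3.63). Cilp2 in CM Day 3 replicate 1 had 0.0485 CPM, against 0.375 to 0.419 CPM.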

How the results depend on the processing

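Of 119 single-gene results in EC, CM and HC, 65 were called, of which 27 lost the call under at least 1 alternative and 8 when 1 library was left out. The 65 include late minus early of Cthrc1 in EC, given above as a description. A single result reversed: Ptprn in EC on Day 14 was 1.36 (edgeR adjusted p = 0.0382) without the libraries set apart. The cause was not tested. Rises against Day 0 numbered 13 in CM, but 6 by limma on log2(TPM + 1) and 4 with no filter on that scale. In HC they numbered 17, but 11 and 10 under the same settings. Shares over all genes are not given here for the alternative settings of this section. Its counts are therefore not results about the members or the lists.

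For the pathway lists in FB, 54 genes were called on Day 7, 21 on Day 28 and 52 late minus early. By limma on log2(TPM + 1) these were 30, 11 and 17, with a pseudocount of 0.1 they were 28, 4 and 21, and with no filter 26, 5 and 14. On Day 28 the count was 48 with only the days compared and 34 without the libraries the study removed. Of the 21 most alike genes, 13 were found again without the 2 shallow FB Day 3 libraries and 9 by Spearman correlation.

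Leaving out 1 library gave 17 to 17 rises in EC and HC and 10 to 14 in CM, 5 to 6 late minus early calls in EC, 2 to 2 in CM and 6 to 6 in HC. The EC late minus early calls include Cthrc1. As a description only, the fitted difference from Day 0 was above 0 for 27 of 35 FB combinations of member and later day, and for 26 to 28 with 1 library left out. These FB values chose the members, and the share over all genes is not given here. The lists gave 48 to 59 genes on Day 7, 15 to 21 on Day 28 and 47 to 60 late minus early. With the replicate number as a block, rises numbered 17 in EC, 13 in CM and 17 in HC, and list calls 52, 21 and 51, and 118 of 119 single-gene results kept their call. Within a cell type, libraries of different days with equal numbers correlated at -0.517 to 0.291 in EC, -0.165 to 0.553 in CM, -0.231 to 0.465 in HC and -0.352 to 0.399 in FB. Since not all were above 0.1, the numbers were not taken as pairing the libraries. Medians for equal and for different numbers were 0.263 and -0.106 in CM, -0.0108 and 0.00471 in EC, 0.0424 and -0.0113 in HC, and -0.00967 and 0.0129 in FB. Pairing across cell types was not tested.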

Other observations

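Day 0 replicate 3 stood low for Cilp2 in EC, CM and HC, and Dkk3, a secreted Wnt regulator chosen after its values were seen, was also lowest in replicate 3. Dkk3 held 46.4, 46.7, 6.13 and 97.8 CPM in the EC Day 0 libraries, 10.3, 8.69, 1.91 and 10.6 CPM in CM and 12.6, 26.4, 3.65 and 40.4 CPM in HC, with replicate 3 the third value of each. In FB it held 99.7, 109, 87.6 and 115 CPM.

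HC Day 28 replicate 1 was the highest of 4 for 6 of the 7 members, and its rank over all genes is not given here. In the FB libraries, the 10 mural cell genes summed to 690 to 806 CPM outside rRNA genes on Day 28, against 918 to 1111 CPM on Day 0. The 9 Schwann cell genes summed to 22.8 to 34.1 CPM on Day 28, against 20.2 to 25.2 CPM on Day 0. Their part in the members' levels was not tested.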
